A study of Mus musculus with 12 samples.

Results

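The Hox genes of the mouse are 39 homeobox genes in 4 clusters, and their messenger RNA was measured here in cultured fibroblast-like synoviocytes, the fibroblasts that line and support the joint capsule. Members were taken by name from the 36875 gene symbols of the count table, as every symbol made of Hox, a cluster letter from a to d and a paralogue number, with antisense RNAs left out. The 12 libraries formed 3 groups of 4. The resolution libraries (called DOX OFF in the sample descriptions) came from mice that drank 5% sucrose water with doxycycline at 1 mg/ml over 3 weeks, after which doxycycline was stopped. The inflammation libraries (DOX ON) came from mice kept on that doxycycline water for the 3 weeks. The homeostasis libraries (called WT) came from mice given the sucrose water alone, so all groups shared the sucrose. One culture protocol is given for all 12 libraries, and it names synovial fibroblasts of mice with arthritis induced by TNF. Not given in the sources used here are the transgene and its promoter, the strain, age and sex of the mice, the joint or limb behind each culture, and the interval from withdrawal to harvest. Nor do they state that replicate libraries represent separate animals, so the p-values measure the spread between these libraries, which may be technical.

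Hox genes encode transcription factors that give cells along the body axis and along the limbs their positional address. Within a cluster the genes lie in the order of their paralogue numbers, and genes of 1 number in different clusters are paralogues that descend from the same ancestral gene. Low numbers act towards the head and high numbers towards the tail. In the limb the high-numbered genes of the Hoxa and Hoxd clusters pattern upper arm, forearm and hand in turn, whereas high-numbered Hoxc genes are known from the hindlimb and, in the case of Hoxc13, from hair and nails. Adult fibroblasts are known to keep a Hox pattern that reflects the site they were taken from.

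On GRCm38 the Hoxa cluster held 11 genes on the minus strand of chromosome 6 (52155590 to 52260880). The Hoxb cluster held 10 genes on the plus strand of chromosome 11 (96194316 to 96368256). The Hoxc cluster held 9 genes on the plus strand of chromosome 15 (102921103 to 103036852), and the Hoxd cluster held 9 genes on the plus strand of chromosome 2 (74668310 to 74765142). All 39 were annotated as protein-coding genes.

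The promoters of 4 neighbouring Hoxd genes are shown because these genes moved together in the measurements below. Each sequence runs from 250 bases before to 50 bases after the start in RefSeq (GRCm38.p6, plus strand of chromosome 2), at chr2:74691641-74691940 for Hoxd10, chr2:74679308-74679607 for Hoxd11, chr2:74674763-74675062 for Hoxd12 and chr2:74667975-74668274 for Hoxd13. Capitals mark matches to the TATA box letters TATAAA.
Hoxd10: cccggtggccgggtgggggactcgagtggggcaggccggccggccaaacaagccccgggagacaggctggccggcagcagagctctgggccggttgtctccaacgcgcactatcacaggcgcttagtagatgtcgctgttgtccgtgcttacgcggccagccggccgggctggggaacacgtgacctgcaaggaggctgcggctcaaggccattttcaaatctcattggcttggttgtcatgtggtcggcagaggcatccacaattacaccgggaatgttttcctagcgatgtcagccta
Hoxd11: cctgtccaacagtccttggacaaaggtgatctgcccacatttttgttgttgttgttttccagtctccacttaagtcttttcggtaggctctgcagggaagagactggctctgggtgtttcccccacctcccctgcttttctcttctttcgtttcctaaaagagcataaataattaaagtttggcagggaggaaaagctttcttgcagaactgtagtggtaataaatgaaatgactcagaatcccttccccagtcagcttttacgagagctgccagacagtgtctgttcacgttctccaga
Hoxd12: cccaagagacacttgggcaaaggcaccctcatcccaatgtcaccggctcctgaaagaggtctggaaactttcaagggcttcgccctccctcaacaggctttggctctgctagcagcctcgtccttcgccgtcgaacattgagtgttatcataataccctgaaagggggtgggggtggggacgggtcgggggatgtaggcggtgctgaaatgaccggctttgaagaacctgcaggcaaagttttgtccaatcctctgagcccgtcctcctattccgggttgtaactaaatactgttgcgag
Hoxd13: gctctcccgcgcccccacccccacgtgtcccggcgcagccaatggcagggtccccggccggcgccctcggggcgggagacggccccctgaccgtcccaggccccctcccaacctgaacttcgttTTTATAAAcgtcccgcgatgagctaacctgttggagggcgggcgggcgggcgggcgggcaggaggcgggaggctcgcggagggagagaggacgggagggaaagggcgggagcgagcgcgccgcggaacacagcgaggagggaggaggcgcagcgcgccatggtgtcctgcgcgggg

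RefSeq promoter sequences were matched for 22 of the 39 genes. In base composition the 4 promoters differed from each other. The Hoxd13 promoter was 74.3% G and C with 37 CpG sites, the Hoxd10 promoter 62.7% with 22, the Hoxd12 promoter 55.0% with 13 and the Hoxd11 promoter 45.7% with 4. Over 32851 promoters of the same length the median was 52.7% with 7 CpG sites (quartiles 3 and 20). Of 4 motifs searched on both strands, the Hoxd13 promoter alone among the 4 held any, a pair of overlapping TATA box matches at positions -126 and -124. TATAAA was found in 3 of 22 Hox promoters and in 13.6% of all. The posterior HOX letters CAATAAA were found in 2 of 22 and in 4.60% of all, the PBX-HOX letters TGATTNAT in 1 of 22 and in 3.22%, and the MEIS letters TGACAG in 2 of 22 and in 19.2%.

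Library depth ran from 18120745 to 34971537 counts, so that a count of 0 allowed a level of up to 3 counts of the total, or 0.086 to 0.166 CPM (counts relative to library size). This limit covers counting error only. All 15 fibroblast markers examined (Pdgfra, Thy1, Col1a1, Prg4 and others) were detected in every group. The summed fibroblast marker level was 11622 to 17312 CPM in resolution, 22561 to 26085 CPM in inflammation and 30556 to 32984 CPM in homeostasis. The summed level of 16 macrophage markers was 69.2 to 79.3 CPM in resolution, 720 to 810 CPM in inflammation and 126 to 167 CPM in homeostasis, with no marker at 0 in a whole group. All 16 rose in inflammation against homeostasis, 10 fell in resolution against homeostasis, and 15 fell in resolution against inflammation. Of all 15049 tested genes, 37.2%, 53.3% and 16.2% passed an edgeR adjusted p of 0.05 in these 3 comparisons, in that order. The counts of every list in this paragraph stand beside those shares. Summed chondrocyte markers were at 109 to 154 CPM in resolution, 204 to 284 CPM in inflammation and 1034 to 1324 CPM in homeostasis, where of 9 tested 5 fell in inflammation and 6 fell and 1 rose in resolution (Matn1 was at 0 in resolution). Schwann cell markers summed to 75.3 to 91.1 CPM in resolution, 64.1 to 70.4 CPM in inflammation and 122 to 145 CPM in homeostasis, and of 8 tested 7 fell in inflammation and 5 fell and 1 rose in resolution, against homeostasis. Skeletal muscle markers summed to 27.2 to 41.0 CPM in resolution, 62.2 to 92.9 CPM in inflammation and 45.2 to 59.0 CPM in homeostasis, and of 7 tested 6 fell in each of these comparisons and 1 rose in inflammation. Endothelial markers summed to 17.3 to 22.6 CPM in resolution, 13.5 to 23.6 CPM in inflammation and 21.5 to 27.4 CPM in homeostasis, and of 8 tested 1 rose and 3 fell in inflammation and 2 rose and 3 fell in resolution. Emcn was at 0 in inflammation, Myf5 at 0 in every group, Pax7 at 0 in resolution and homeostasis and Myog at 0 in resolution. All 15 tested proliferation genes fell in both comparisons against homeostasis. Xist, the RNA of the inactive X chromosome, averaged 174 CPM in resolution, 110 CPM in inflammation and 10.8 CPM in homeostasis, and the Y-linked gene Ddx3y had 0 counts in resolution, 3 counts in inflammation and 23.6 CPM in homeostasis. The Y-linked genes Eif2s3y, Kdm5d and Uty had 0 counts in resolution and inflammation and were detected in homeostasis. Sex and treatment therefore cannot be told apart in either comparison with homeostasis. These differences run with the groups, and their part in the Hox results below was not tested. In such bulk cultures fewer cells of a type and less RNA per cell cannot be told apart.

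Of the 39 Hox genes, 23 passed the filter on low counts and were tested. They were 10 of 11 Hoxa genes (all but Hoxa2), 1 of 10 Hoxb genes (Hoxb9), 6 of 9 Hoxc genes (Hoxc6 and Hoxc9 to Hoxc13) and 6 of 9 Hoxd genes (Hoxd8 to Hoxd13). The 16 untested genes never exceeded 20 counts or 0.615 CPM in a library, and Hoxb1 and Hoxd1 had no count in any. Some of the untested genes were still unevenly spread. Hoxc5 had 2 counts summed over the resolution libraries, 17 over the inflammation libraries and 0 over the homeostasis libraries, and Hoxc8 had 2, 10 and 0 in the same order. Hoxb2 had 23 counts in resolution, 2 in inflammation and 27 in homeostasis. With no filter on low counts, Hoxc5 was called higher in inflammation against homeostasis (edgeR adjusted p = 0.0207). Hoxb2 was then called lower in inflammation against homeostasis (adjusted p = 0.0193) and higher in resolution against inflammation (adjusted p = 0.0297). The cultures thus carried a posterior Hox profile in all 3 groups, in which 16 genes reached a mean of 1 CPM in resolution, 17 in inflammation and 17 in homeostasis.

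Per base of transcript, the leading Hox gene differed between the groups. The level per length (normalized CPM per kb of coding transcript) was highest for Hoxd11 in resolution at 29.5 ± 2.16 (SD, n = 4), followed by Hoxd13 at 12.5 ± 0.299 and Hoxa11 at 10.9 ± 1.25. In inflammation Hoxa11 led at 13.3 ± 1.08 CPM per kb, followed by Hoxc10 at 10.9 ± 0.269 and Hoxa10 at 8.42 ± 0.820. In homeostasis the order was again Hoxd11 at 22.3 ± 3.61, Hoxd13 at 11.7 ± 1.44 and Hoxa11 at 10.3 ± 1.30 CPM per kb. Hoxd13 and Hoxa11 lay within their spread of each other there. The place of Hoxd11 rests on the 1111 bases of its 1 annotated coding transcript, against 2483 bases for Hoxd13.

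Summed over a cluster, the groups differed mainly in Hoxc and Hoxd. The Hoxc genes made up 4.33% to 5.12% of all Hox RNA per length in the resolution libraries, 33.4% to 37.4% in the inflammation libraries and 5.38% to 6.47% in the homeostasis libraries. The Hoxd genes made up 49.6% to 54.2% in resolution, 10.5% to 11.7% in inflammation and 46.1% to 50.4% in homeostasis. The Hoxa share was 39.1% to 44.6% in resolution, 51.4% to 53.8% in inflammation and 43.6% to 46.1% in homeostasis. In level rather than share, the Hoxa sum differed little, at 40.5 ± 2.10, 40.5 ± 1.82 and 38.0 ± 2.54 CPM per kb in resolution, inflammation and homeostasis (SD, n = 4 each). The Hoxc sum was 4.55 ± 0.445 CPM per kb in resolution, 27.4 ± 1.40 in inflammation and 5.05 ± 0.426 in homeostasis, and the Hoxd sum was 49.3 ± 2.68, 8.58 ± 0.662 and 39.9 ± 3.17 CPM per kb in the same groups. The inflammation libraries therefore stood apart from both other groups in these 2 clusters, in opposite directions, with no overlap between libraries. These sums are descriptions and carry no test.

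**Figure D1:**
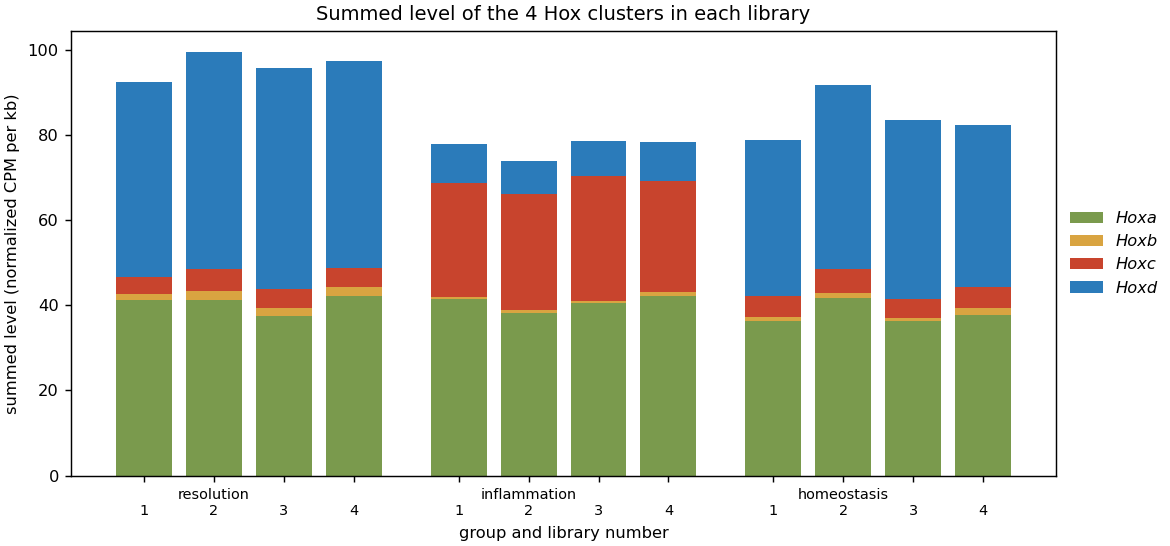
Stacked bars give the summed level of the Hoxa, Hoxb, Hoxc and Hoxd genes (normalized CPM per kb of transcript), 1 bar for each resolution, inflammation and homeostasis library. The Hoxc part averages 27.4 in inflammation and at most 5.05 in the other groups, the Hoxd part averages 8.58 in inflammation and at least 39.9 in the others, and the Hoxa parts are of like height.

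Inflammation was first compared with homeostasis, gene by gene. Of the 23 tested Hox genes, 7 rose, 7 fell and 9 did not pass the quasi-likelihood test of edgeR at an adjusted p of 0.05. Over all 15049 genes, 37.2% were called in this comparison, 19.0% higher and 18.3% lower, so a call was common. The median log2 fold change of the Hox genes was -0.12, against -0.01 over all genes. Folds of at least 2 were called for 11 of the 23, against 13.8% of all genes, and the libraries of the groups did not overlap for 12, against 35.4% of all. By cluster, all 6 tested Hoxc genes rose and 5 of 6 Hoxd genes fell. Hoxc6, Hoxc9 and Hoxc12 averaged 0.374, 0.322 and 0.480 CPM in homeostasis and were no higher in resolution. They could pass the filter on low counts mainly through the inflammation libraries, so the filter favoured a rise in them. Hoxc4, Hoxc5 and Hoxc8 were not tested. With upper-quartile factors or library totals in place of the TMM factors (trimmed mean of M-values) used throughout, 9 Hox genes were higher and 5 lower.

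The Hoxc genes that rose most were Hoxc10 and Hoxc11, which are known for roles in hindlimb and lumbosacral patterning. Hoxc10 had 20.8, 20.1, 21.3 and 20.7 CPM in inflammation, against 2.99, 2.58, 2.05 and 3.49 CPM in homeostasis. Hoxc11 had 12.8, 13.1, 12.8 and 10.1 CPM in inflammation, against 1.57, 1.63, 1.48 and 0.996 CPM in homeostasis. Every inflammation library thus lay far above every homeostasis library for both genes. The log2 fold change was 2.89 (SE 0.23) for Hoxc10 and 3.09 (SE 0.23) for Hoxc11, with edgeR adjusted p = 1.60e-08 and 6.80e-09. Hoxc13, which is needed for hair and nail keratin genes, had 16.7, 16.5, 15 and 14.7 CPM in inflammation, against 4.87, 6.21, 4.73 and 3.80 CPM in homeostasis. Its groups did not overlap either, and it rose by 1.67 (SE 0.18) on the log2 scale (edgeR adjusted p = 6.97e-07). The other tested Hoxc genes were scarcer. Hoxc12 averaged 2.53 ± 1.20 CPM in inflammation and 0.480 ± 0.0659 CPM in homeostasis, and rose by 2.37 (SE 0.40) on the log2 scale. Hoxc9, which acts in the trunk and in motor neuron columns, averaged 1.56 ± 0.186 CPM in inflammation and 0.322 ± 0.136 CPM in homeostasis, and rose by 2.20 (SE 0.44). Hoxc6 rose by 1.69 (SE 0.50, edgeR adjusted p = 0.0122), but its libraries overlapped, and against homeostasis libraries 3 and 4 alone it did not pass (1.01, edgeR adjusted p = 0.163).

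The Hoxd genes of the distal limb went the other way. Hoxd13, which patterns digits, had 4.25, 5.28, 4.89 and 5.52 CPM in inflammation, against 29.4, 33.7, 25.1 and 27.9 CPM in homeostasis. Hoxd11, which patterns forearm and wrist together with Hoxa11, had 5.89, 4.38, 4.89 and 5.25 CPM in inflammation, against 20.6, 25.8, 29.9 and 23.0 CPM in homeostasis. Both genes stood in every inflammation library at a small part of their lowest homeostasis level. Hoxd13 fell by 2.54 (SE 0.15) and Hoxd11 by 2.28 (SE 0.16) on the log2 scale, with edgeR adjusted p = 2.87e-10 and 2.77e-09. Hoxd10, a gene of limb and lumbar motor neuron patterning, had 1.51, 1.10, 0.930 and 1.37 CPM in inflammation, against 6.29, 5.11, 5.07 and 5.61 CPM in homeostasis. It fell by 2.16 (SE 0.21), and its groups did not overlap. Hoxd12, also a gene of the distal limb, averaged 0.190 ± 0.0680 CPM in inflammation and 1.72 ± 0.0945 CPM in homeostasis and fell by 3.15 (SE 0.40). At the other end of the tested stretch, Hoxd8 averaged 1.44 ± 0.246 CPM in inflammation and 2.82 ± 1.01 CPM in homeostasis and fell by 0.99 (SE 0.28, edgeR adjusted p = 0.00952), a call lost without homeostasis library 2 (adjusted p = 0.0625). Hoxd9 did not pass, at -0.42 (SE 0.37).

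**Figure D2:**
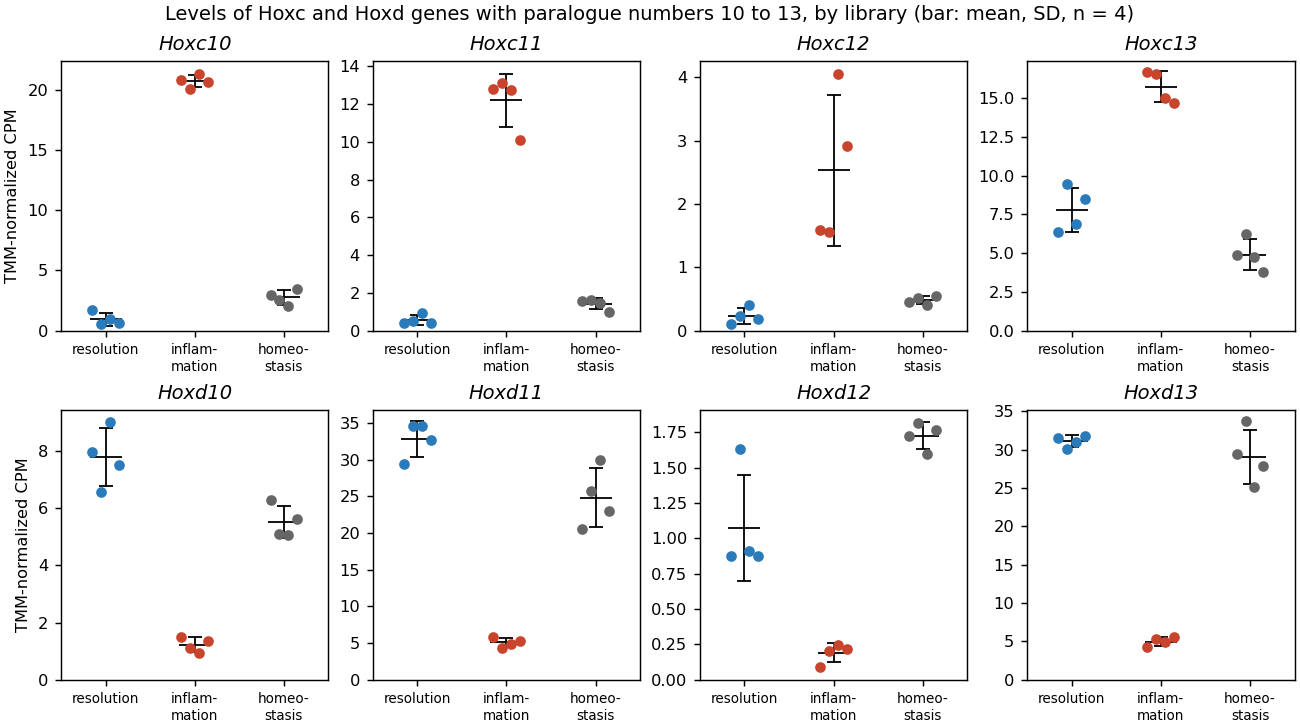
TMM-normalized CPM of the Hoxc genes (top) and Hoxd genes (bottom) with paralogue numbers 10 to 13 in resolution, inflammation and homeostasis, 1 point per library with mean and SD (n = 4), on axes that differ between genes. For all 4 Hoxc genes the inflammation points lie above all others, and for all 4 Hoxd genes they lie below all others.

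Hoxa genes changed little in inflammation, although they include partners of the same Hoxd genes. Hoxa11 had 32.9, 28.3, 32.2 and 28.3 CPM in inflammation, against 22.5, 21.8, 22.0 and 28.0 CPM in homeostasis, and rose by 0.37 (SE 0.14, edgeR adjusted p = 0.0454). The highest homeostasis library lay just below the lowest inflammation library. The deposited values split reads between Hoxa11 and its antisense RNA Hoxa11os, whose values summed to whole numbers in 12 of 12 libraries (tolerance 0.001), so the share of each is uncertain. Their sum was 67.3 ± 7.21 CPM in inflammation and 57.4 ± 7.05 CPM in homeostasis (SD, n = 4 each), and those ranges overlapped. Hoxa7, a trunk gene, had 6.53, 5.24, 5.24 and 5.70 CPM in inflammation, against 6.44, 8.64, 7.86 and 8.78 CPM in homeostasis, with overlap, and fell by 0.49 (SE 0.19, edgeR adjusted p = 0.0491). Hoxa4 fell by 1.20 (SE 0.46, edgeR adjusted p = 0.0472) at levels under 1 CPM. These 3 calls lay close to the threshold and were each lost with the replicate number as a block (edgeR adjusted p = 0.0813 for Hoxa11, 0.0622 for Hoxa7 and 0.0649 for Hoxa4). Leaving out 1 library also ended them in 5, 9 and 10 of 12 cases. The other 7 Hoxa genes did not pass, with log2 fold changes between -0.66 (Hoxa5) and 0.46 (Hoxa13). Hoxa10 had libraries that did not overlap (15.4 to 19.2 CPM in inflammation and 10.2 to 15 CPM in homeostasis) but did not pass at 0.36 (SE 0.16, edgeR adjusted p = 0.0840). It passed without homeostasis library 2 (adjusted p = 0.0465), as did Hoxa13 (0.0276), and Hoxa5 passed without homeostasis library 4 (0.0476).

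In resolution against homeostasis, the Hox pattern differed far less. Of the 23 tested genes, 5 rose, 2 fell and 16 did not pass, whereas 53.3% of all genes were called, 27.5% higher and 25.8% lower. The Hox median was 0.09 on the log2 scale and that of all genes -0.01. Only Hoxb9, Hoxc10 and Hoxc11 were called with folds of at least 2, against 23.5% of all genes, and the libraries of 6 genes did not overlap, against 43.5% of all. Hox genes were thus called less often than the table as a whole, a description with no test of the difference.

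The genes that fell in resolution were Hoxc10 and Hoxc11. Hoxc10 had 1.70, 0.560, 0.952 and 0.600 CPM in resolution and Hoxc11 had 0.412, 0.513, 0.952 and 0.416 CPM, each below the homeostasis values given above. Hoxc10 fell by 1.56 (SE 0.28, edgeR adjusted p = 9.78e-05) and Hoxc11 by 1.29 (SE 0.29, edgeR adjusted p = 0.000863). Hoxc13 differed from these neighbours, with 6.33, 9.43, 6.89 and 8.50 CPM in resolution, above the range of homeostasis. It rose by 0.66 (SE 0.18, edgeR adjusted p = 0.00465). Against homeostasis libraries 1 and 2 alone Hoxc13 did not pass (0.47, edgeR adjusted p = 0.0726). Hoxc6, Hoxc9 and Hoxc12 did not pass, at -0.41, -0.64 and -1.03. Hoxc9 passed without resolution library 2 (adjusted p = 0.0493), and Hoxc12 without resolution library 3 (0.0401).

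Of the Hoxd genes that were low in inflammation, Hoxd13, Hoxd11 and Hoxd10 stood near or above the homeostasis level in resolution, and Hoxd12 stood below it in mean. Hoxd13 had 31.6, 30.1, 31.0 and 31.8 CPM in resolution, inside the homeostasis range, and did not pass at 0.10 (SE 0.14). Hoxd11 had 29.5, 34.6, 34.5 and 32.6 CPM in resolution and rose by 0.40 (SE 0.15, edgeR adjusted p = 0.0276), with 1 library inside the homeostasis range. Hoxd10 had 7.98, 6.58, 9.03 and 7.53 CPM in resolution and rose by 0.50 (SE 0.18, edgeR adjusted p = 0.0279), with no overlap. Neither rise held under every alternative. The Hoxd10 call was lost without resolution libraries 1, 3 or 4 or homeostasis libraries 2 or 3 (adjusted p up to 0.0886). It was also lost with offsets for GC content and length (0.22, adjusted p = 0.258). The Hoxd11 call was lost without resolution libraries 3 or 4 or homeostasis libraries 1 or 4 (up to 0.0894). Of 23 alternatives, 9 ended the Hoxd10 call and 6 the Hoxd11 call. Adjusted p reached 0.273 and 0.117 by the test of each alternative. Hoxd12 averaged 1.07 ± 0.374 CPM in resolution and 1.72 ± 0.0945 CPM in homeostasis, at -0.68 (SE 0.33, edgeR adjusted p = 0.0850). It passed without resolution library 2 (0.0270), the library with the highest level.

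A pair of genes outside these clusters rose in resolution. Hoxb9, a gene of thoracic and mammary patterning and the only tested Hoxb gene, had 2.37, 4.15, 3.90 and 4.11 CPM in resolution, against 1.12, 0.646, 0.797 and 2.22 CPM in homeostasis. It rose by 1.61 (SE 0.34, edgeR adjusted p = 0.000489) with no overlap. Some of its deposited values were not whole, so part of its reads may be shared with another gene. Hoxa13, the partner of Hoxd13 in hand and foot, had 7.31, 7.09, 8.12 and 7.48 CPM in resolution, against 5.17, 5.47, 3.25 and 3.67 CPM in homeostasis. It rose by 0.76 (SE 0.19, edgeR adjusted p = 0.00274), again with no overlap, but did not pass against homeostasis libraries 1 and 2 alone (0.48, edgeR adjusted p = 0.0723). The other 9 tested Hoxa genes did not pass, with log2 fold changes of up to 0.71 (Hoxa5). Hoxa5 passed without homeostasis library 3 (edgeR adjusted p = 0.0253).

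Resolution against inflammation held the largest fold changes of single Hox genes. Here 8 of the 23 tested genes rose, 6 fell and 9 did not pass, in a comparison in which 16.2% of all genes were called, 8.52% higher and 7.64% lower. The Hox median was 0.30, against 0.02 over all genes. Folds of at least 2 were called for 13, against 5.36% of all genes, and the libraries of 15 did not overlap, against 18.9% of all. All 6 tested Hoxc genes fell and all 6 tested Hoxd genes rose. Hoxc6, Hoxc9 and Hoxc12 averaged 0.269, 0.211 and 0.232 CPM in resolution and could pass the filter on low counts mainly through inflammation. Hoxd12, at a mean of 0.190 CPM in inflammation, could pass it mainly through the other groups. For these genes the filter favoured the direction seen. Since each group of libraries enters 2 of the 3 comparisons, their values are not independent of each other.

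Hoxc10 and Hoxc11 fell by 4.45 (SE 0.27) and 4.39 (SE 0.26) on the log2 scale, both with edgeR adjusted p = 4.85e-10. This made them 21.9-fold and 21.0-fold lower in resolution. Hoxc12 averaged 0.232 ± 0.129 CPM in resolution and 2.53 ± 1.20 CPM in inflammation and fell by 3.39 (SE 0.45). Hoxc9 averaged 0.211 ± 0.175 CPM in resolution and 1.56 ± 0.186 CPM in inflammation and fell by 2.84 (SE 0.47), and Hoxc6 fell by 2.11 (SE 0.52, edgeR adjusted p = 0.00994). Hoxc13 fell least, by 1.01 (SE 0.18, edgeR adjusted p = 0.000503). The fold changes were thus greatest for Hoxc10 and Hoxc11 and smallest for Hoxc13. Hoxc6 (mean 0.269 CPM), Hoxc9 and Hoxc12 lay near the counting limit in resolution, so an order along the cluster cannot be read from their folds.

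Along the Hoxd cluster the differences were nearly level from Hoxd10 to Hoxd13. Hoxd10, Hoxd11, Hoxd12 and Hoxd13 rose by 2.66 (SE 0.21), 2.68 (SE 0.16), 2.46 (SE 0.41) and 2.64 (SE 0.15) on the log2 scale, with edgeR adjusted p between 3.67e-10 and 0.000345. Their levels differed widely, from 1.07 CPM for Hoxd12 to 32.8 CPM for Hoxd11 as means in resolution. Hoxd8 averaged 2.84 ± 0.671 CPM in resolution and 1.44 ± 0.246 CPM in inflammation and rose by 0.98 (SE 0.28, edgeR adjusted p = 0.0235). Hoxd9 had 1.11 to 2.66 CPM in resolution, against 0.548 to 0.930 CPM in inflammation, and rose by 1.11 (SE 0.36, edgeR adjusted p = 0.0396). The Hoxd9 call was lost with the replicate block (edgeR adjusted p = 0.0585), and leaving out 1 library ended it in 6 of 12 cases and the Hoxd8 call in 5. Hoxb9 rose by 1.78 (SE 0.34, edgeR adjusted p = 0.00120) and Hoxa5, a gene of neck and lung patterning, by 1.37 (SE 0.35, edgeR adjusted p = 0.0118). The other 9 Hoxa genes did not pass, with log2 fold changes between -0.28 (Hoxa11) and 1.05 (Hoxa4).

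**Figure D3:**
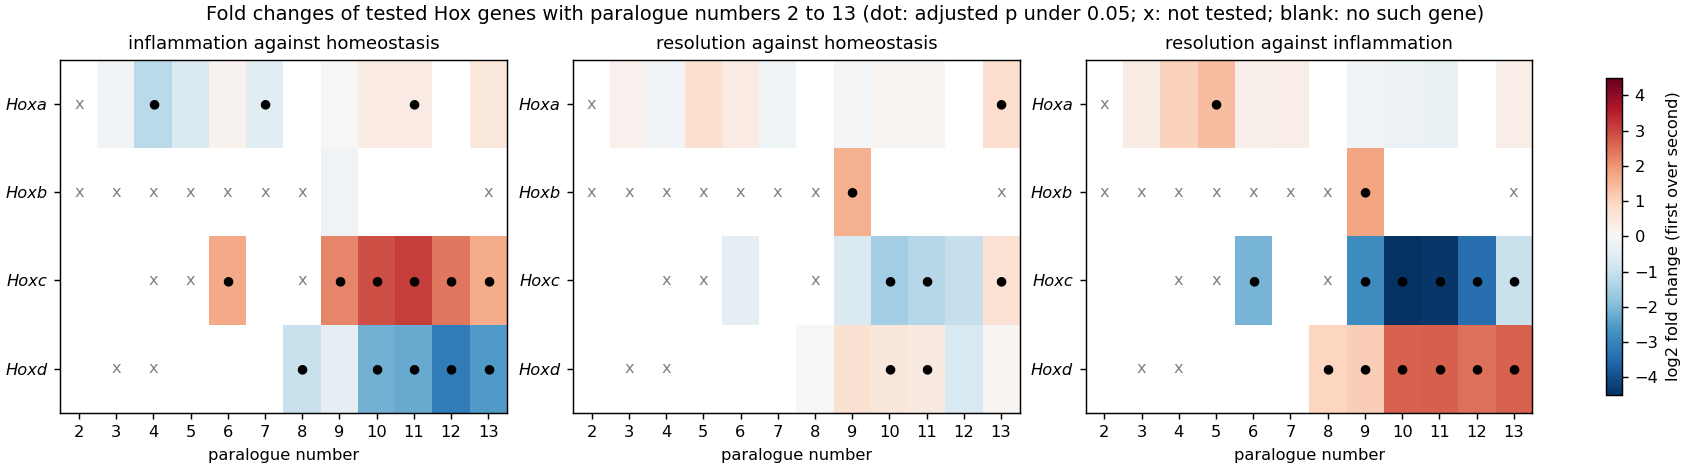
Each panel is a grid of cluster (rows) by paralogue number (columns, numbers 2 to 13) coloured by log2 fold change (red above 0, blue below 0), for inflammation over homeostasis, resolution over homeostasis and resolution over inflammation. Dots mark called genes, an x an untested gene and blanks numbers with no gene. The Hoxc row is red and the Hoxd row blue for inflammation over homeostasis, and the colours turn round for resolution over inflammation. Changes in the Hoxa row are mostly smaller, the largest being 1.37 (Hoxa5, resolution over inflammation) and -1.20 (Hoxa4, inflammation over homeostasis). These 2 exceed the changes of Hoxd8 and Hoxd9 in the same panels.

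Within a paralogue number, the balance between the Hoxc and Hoxd genes differed between the groups. The ratio of the Hoxc to the Hoxd gene per length was taken for numbers 10 to 13. For number 10 it was 0.0759 to 0.203 over the resolution libraries, 13.1 to 21.8 over the inflammation libraries and 0.385 to 0.591 over the homeostasis libraries. For number 11 it was 0.00701 to 0.0152 in resolution, 1.06 to 1.65 in inflammation and 0.0238 to 0.0420 in homeostasis. For number 12, the scarcest, it was 0.289 to 1.11 in resolution, 18.7 to 43.0 in inflammation and 0.614 to 0.756 in homeostasis. For number 13 it was 0.202 to 0.316 in resolution, 2.69 to 3.96 in inflammation and 0.137 to 0.190 in homeostasis. For numbers 10, 11 and 13 the Hoxc gene outweighed its Hoxd paralogue in every inflammation library and in no other library, and for number 12 also in 1 resolution library. With the 4 numbers summed, the ratio was 0.0853 to 0.0969 in resolution, 3.16 to 3.94 in inflammation and 0.102 to 0.138 in homeostasis. The sums over all 4 clusters also differed between the groups, by less than these ratios. Number 10 summed to 11.8 ± 0.951, 20.0 ± 0.814 and 11.1 ± 0.871 CPM per kb in resolution, inflammation and homeostasis, and number 13 to 21.5 ± 0.434, 13.1 ± 0.759 and 17.0 ± 2.55 CPM per kb. Number 11 summed to 40.7 ± 2.23, 24 ± 1.80 and 33.4 ± 3.34 CPM per kb, and number 12 to 0.649 ± 0.197, 2.53 ± 1.18 and 1.15 ± 0.0992 CPM per kb. Number 9 stayed within 5.45 to 6.42 CPM per kb as group means.

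Of 4 tested transcripts that lie in or beside the clusters, 1 rose and 1 fell in inflammation against homeostasis, and 1 rose and 1 fell in resolution against inflammation. Hotair, a long non-coding RNA of the Hoxc cluster, had 0, 0.373, 0.272 and 0 CPM in resolution, 1.46, 1.55, 1.32 and 1.15 CPM in inflammation and 0, 0.0923, 0.342 and 0 CPM in homeostasis. It was high in the inflammation libraries alone, as Hoxc10 and Hoxc11 were, at 3.71 against homeostasis (SE 0.76, edgeR adjusted p = 0.000818) and, for resolution against inflammation, -3.02 (SE 0.71, edgeR adjusted p = 0.00685). Evx2, a homeobox gene next to Hoxd13, had 0.772, 0.933, 0.635 and 1.15 CPM in resolution, 0, 0.0818, 0 and 0.132 CPM in inflammation and 1.12, 0.953, 0.455 and 0.543 CPM in homeostasis. It was near 0 in inflammation, where it fell by 3.67 (SE 0.65, edgeR adjusted p = 0.000217), and it rose by 3.84 (SE 0.65) in resolution against inflammation. Hottip, beside Hoxa13, did not pass in any comparison. Of 13 tested genes flanking the clusters further out, 3 rose and 2 fell in inflammation against homeostasis, where 37.2% of all genes were called. In resolution 6 rose and 3 fell against homeostasis (53.3% of all genes), and 2 rose against inflammation (16.2%). Mtx2 and Lnp, which flank the Hoxd cluster, stood at 0.17 and -0.01 in inflammation against homeostasis, neither past the test.

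The limb identity genes, which are no Hox genes, also divided the groups. Tbx5, the T-box factor of the forelimb, had 5.82, 6.16, 5.62 and 5.26 CPM in resolution, 0.0913, 0.205, 0.636 and 0.353 CPM in inflammation and 1.57, 3.66, 2.22 and 2.54 CPM in homeostasis. The 3 groups did not overlap, and Tbx5 fell by 2.98 in inflammation against homeostasis (SE 0.38, edgeR adjusted p = 5.07e-06) and rose by 1.17 in resolution against homeostasis (SE 0.29, adjusted p = 0.00201). Pitx1, the homeobox factor of the hindlimb, had 0.824, 1.07, 1.32 and 1.06 CPM in resolution, 10.9, 8.96, 9.54 and 7.99 CPM in inflammation and 6.65, 5.63, 5.01 and 8.20 CPM in homeostasis. It fell by 2.56 in resolution against homeostasis (SE 0.22, edgeR adjusted p = 1.72e-08) and it fell by 3.11 in resolution against inflammation (SE 0.22, adjusted p = 5.33e-09). In inflammation against homeostasis it rose by 0.55 (SE 0.19, adjusted p = 0.0275), where 1 homeostasis library reached into the inflammation range. Tbx4, the T-box factor of the hindlimb, averaged 16.7 ± 2.04 CPM in resolution, 15.4 ± 1.91 CPM in inflammation and 27.9 ± 3.46 CPM in homeostasis. It fell in both comparisons against homeostasis (-0.74 and -0.86) and did not pass between resolution and inflammation (0.12). The resolution libraries thus paired high Hoxd and Tbx5 with low Hoxc and Pitx1, and the inflammation libraries held the reverse. The homeostasis libraries had high Hoxd and low Hoxc with both Tbx5 and Pitx1 present. They still differed from resolution, where Hoxc10 and Hoxc11 were called lower, as given above. Hoxa13, Hoxb9, Hoxc13, Hoxd10 and Hoxd11 were called higher there. Whether limb of origin differed between the groups was not tested, and from these labels it cannot be told apart from treatment.

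**Figure D4:**
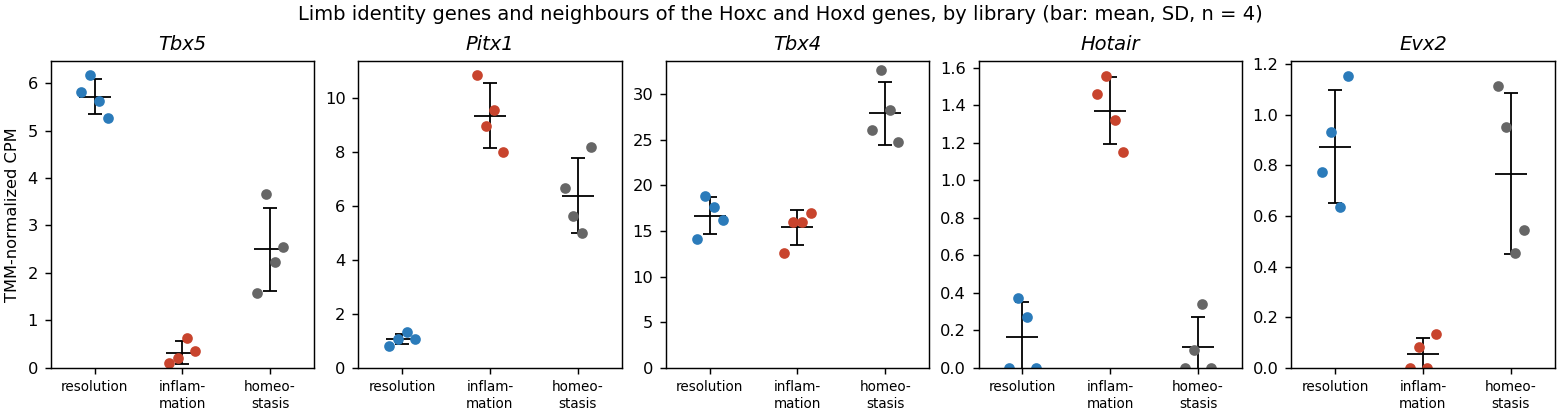
TMM-normalized CPM of Tbx5, Pitx1, Tbx4, Hotair and Evx2 in resolution, inflammation and homeostasis, 1 point per library with mean and SD (n = 4). Tbx5 and Evx2 are lowest and Hotair is highest in the inflammation libraries, and Pitx1 is lowest in the resolution libraries.

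Genes that work with Hox proteins or regulate Hox clusters were counted from lists chosen with earlier results of these data known. Hox proteins bind DNA together with the TALE homeodomain cofactors (Pbx, Meis and Pknox). Over all genes, 37.2% were called in inflammation against homeostasis, 53.3% in resolution against homeostasis and 16.2% in resolution against inflammation, and the counts of each list stand beside these shares. Of 11 tested cofactors, 1 rose and 1 fell in inflammation against homeostasis, 2 rose and 1 fell in resolution against homeostasis, while 0 were called by edgeR in resolution against inflammation (1 at an unadjusted p under 0.05, and 0 by DESeq2). Meis2 averaged 3.51 ± 0.228 CPM in resolution, 4.56 ± 0.271 in inflammation and 2.17 ± 0.342 in homeostasis, and rose in both comparisons with homeostasis. Pknox2 fell in both (-1.65 in inflammation and -1.48 in resolution).

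Polycomb complexes keep Hox clusters silent and Trithorax complexes keep them active. Of 31 tested Polycomb genes, 4 rose and 7 fell in inflammation against homeostasis, 9 rose and 10 fell in resolution against homeostasis, and 4 rose and 2 fell between resolution and inflammation, against 37.2%, 53.3% and 16.2% of all genes called. Their median log2 fold changes were -0.10, -0.06 and 0.00, near those of all genes. Ezh2, the methyltransferase of Polycomb complex PRC2, averaged 11.5 ± 2.67 CPM in resolution, 14.8 ± 1.77 in inflammation and 36.7 ± 8.79 in homeostasis, and fell in both comparisons with homeostasis (-1.67 and -1.31), as the proliferation genes did. Of 20 tested Trithorax, MLL complex and demethylase genes, 1 rose and 8 fell in inflammation against homeostasis, 4 rose and 12 fell in resolution against homeostasis, and 1 rose between resolution and inflammation, beside the same shares of all genes. Kdm6a, an X-linked histone demethylase gene that escapes X inactivation, averaged 28.7 ± 7.08 CPM in resolution, 21.2 ± 3.31 in inflammation and 9.10 ± 2.82 in homeostasis, and rose in both comparisons with homeostasis, alongside Xist.

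Retinoic acid is a known inducer of Hox genes. Of 15 tested genes of its synthesis, breakdown and receptors, 5 rose and 3 fell in inflammation against homeostasis, 7 rose and 4 fell in resolution against homeostasis, and 6 rose and 2 fell between resolution and inflammation, against 37.2%, 53.3% and 16.2% of all genes called. Aldh1a2, which makes retinoic acid, averaged 214 ± 17.9 CPM in resolution, 44.5 ± 5.87 in inflammation and 165 ± 36.6 in homeostasis. Like the Hoxd genes it was low in the inflammation libraries alone (-1.89 against homeostasis, edgeR adjusted p = 1.87e-08, and 2.27 for resolution against inflammation, adjusted p = 4.06e-09). Cyp26b1, which breaks retinoic acid down, averaged 37.4 ± 5.34 CPM in resolution, 17.6 ± 1.21 in inflammation and 13 ± 4.04 in homeostasis. Of 26 tested other limb patterning genes, 8 rose and 9 fell in inflammation against homeostasis, 5 rose and 8 fell in resolution against homeostasis, and 2 rose and 4 fell between resolution and inflammation, beside the same shares. Six2, a homeobox gene of limb tendon and joint tissue, averaged 2.23 ± 0.359 CPM in resolution, 6.42 ± 0.778 in inflammation and 2.60 ± 0.963 in homeostasis, the same direction as the Hoxc genes. Aldh1a2 and Six2 are single members of lists that moved in both directions, and any link of theirs to the Hox levels was not tested.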

How the data were processed

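Poly(A)-enriched libraries of cultured mouse synoviocytes were sequenced on a NovaSeq, paired, at 150 bases a read and 6 G of raw data for each sample, as the labels' protocols state. The authors deposited 1 table of estimated counts for every gene symbol in every library, without normalization. The genome build was GRCm38.p3 (per the submitters' processing notes). Aligner, counter, annotation release and strand setting are not given in these sources, so reads of a Hox gene and of an overlapping or antisense transcript cannot be told apart. Of the deposited values 1.43% were not whole (tolerance 0), and of the Hox values 4.06%, in 3 genes (Hoxa11, Hoxb3 and Hoxb9). Of 36930 entries, 13 had no value and 42 repeated entries were summed, which left 36875 symbols, and values were rounded.

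The members and lists were chosen with earlier results of these data known. Groups came from the sample titles. Genes were kept by the default expression filter of edgeR 4.0.16 (R 4.3.3), which left 15049, with TMM factors, and tested with its robust quasi-likelihood F test on all 12 libraries with group alone. P-values were adjusted over all tested genes by the Benjamini-Hochberg method (threshold 0.05). SE is the size of the log2 fold change divided by the square root of F. The procedure was tested on simulated data. Levels are TMM-normalized CPM, divided where stated by the median length of the coding transcripts of GENCODE M21. Deviations of same-numbered resolution and inflammation libraries correlated at 0.126 to 0.214, whereas with homeostasis the values were -0.228 to 0.080. Resolution library 2 was closest to inflammation library 1, not to its own number. The labels do not say that numbers mark a shared animal or batch. The main test therefore used no pairing, and the replicate block was run as an alternative only.

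Per-library values were given for the 9 Hox genes called in any comparison with a group mean of at least 5 CPM. From other lists up to 4 members with the smallest adjusted p could be named, with Tbx5, Tbx4, Pitx1, Xist and Ddx3y. Other genes (Hoxc6, Hoxc9, Hoxc12, Hoxd8, Hoxd9, Hoxd12, Hoxa4, Hoxa5, Hoxa10, Hoxb9, Mtx2, Lnp, Hottip) were described as members or cluster neighbours after their values were seen. Alternatives covered scaling, filter, DESeq2 1.42.0, the 2 groups alone, the replicate block, each library left out, 2 homeostasis libraries as sole controls and, chosen after seeing the data, GC and length offsets and the longest transcript. Some genes are not reported here.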

Additional observations from a re-analysis of the deposited data

Results flagged for a closer look

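In groups of 4 libraries, 9 of 81 values examined held 1 library whose gap to its nearest neighbour exceeded Dixon's critical share of the group's range for 4 values, and chance alone flags about 1 in 20 such groups. In the Hoxa cluster, homeostasis library 3 had the lowest Hoxa3 level at 0.228 CPM, against 1.04 to 1.12 CPM in the other 3. Inflammation library 2 had the highest Hoxa4 level at 0.532 CPM, against 0.177 to 0.228 CPM. Homeostasis library 2 had the highest Hoxa9 level at 10.9 CPM, against 7.96 to 8.43 CPM, and homeostasis library 4 the highest Hoxa11 level at 28.0 CPM, against 21.8 to 22.5 CPM. Inflammation library 4 had the highest Hoxa13 level at 7.64 CPM, against 5.38 to 5.71 CPM. The summed Hoxa level was lowest in inflammation library 2 at 68.8 CPM, against 73.9 to 74.9 CPM. In the other clusters, resolution library 1 had the lowest Hoxb9 level at 2.37 CPM, against 3.90 to 4.15 CPM. Inflammation library 4 had the lowest Hoxc11 level at 10.1 CPM, against 12.8 to 13.1 CPM, still above every library of the other groups. Resolution library 2 had the highest Hoxd12 level at 1.63 CPM, against 0.875 to 0.907 CPM.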

How the results depend on the processing

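No Hox gene reversed its direction once called, under any alternative run. In inflammation against homeostasis, 9 of 14 calls (Hoxc9 to Hoxc13 and Hoxd10 to Hoxd13) held in all 23 alternatives, and Hoxa4, Hoxa7, Hoxa11, Hoxc6 and Hoxd8 lost theirs in at least 1. In resolution against homeostasis 3 of 7 held (Hoxb9, Hoxc10, Hoxc11), and in resolution against inflammation 12 of 14 held in 22 alternatives, all but Hoxd8 and Hoxd9. Leaving out 1 library gave 11 to 13, 5 to 9 and 12 to 14 called Hox genes in these comparisons. The Hoxa11 call of inflammation was lost without inflammation libraries 1 or 3 or homeostasis libraries 1, 2 or 3 (adjusted p up to 0.118). The Hoxa7 call was lost without resolution 1 or 4, any inflammation library or homeostasis 2, 3 or 4 (up to 0.140), and the Hoxa4 call without any library but inflammation 2 or homeostasis 1 (up to 0.166). In resolution against inflammation, Hoxd9 was lost without resolution 2 or 3 or any inflammation library (up to 0.121), and Hoxd8 without resolution 3 or 4 or inflammation 1, 2 or 3 (up to 0.0923).

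With the replicate number as a block, 11, 7 and 13 Hox genes were called in the 3 comparisons, and 14 in resolution against inflammation with these 2 groups alone. The losses were Hoxa4, Hoxa7 and Hoxa11 in inflammation and Hoxd9 between resolution and inflammation, and the block changed no other call. Against homeostasis libraries 1 and 2 as sole controls, resolution had 4 called Hox genes in place of 7 (2 rose and 2 fell). The cause was not tested. With library totals alone the summed levels in resolution were 72.6 CPM for Hoxa, 81.2 CPM for Hoxd and 48.7 CPM for paralogue 13, against 69.2, 77.6 and 46.5 CPM with TMM factors. That scaling puts the median of all genes at 0.13 on the log2 scale in resolution against homeostasis, where it was -0.01 with TMM factors. With the longest coding transcript as length, the Hoxc share of Hox RNA averaged 5.36%, 40.9% and 6.93% and the Hoxd share 57.6%, 12.4% and 54.0% in resolution, inflammation and homeostasis. Genes under 1 CPM rest on few counts per library. With no filter, Hoxb2 and Hoxc5 were called among the 16 genes left untested.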
